A study of Mus musculus with 8 samples.

Results

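The immediate early genes Fos, Fosb, Junb, Egr1, Egr2, Npas4, Nr4a1, Atf3, Arc and Btg2 were followed array by array in the mouse olfactory bulb, the first relay of smell in the brain. Their 10 probes were taken by gene name from the noncontrol probes of the scanner files, 1 probe per gene, out of 34797 names on the array. They filled 19 spots, 10 of them for Fos. On every array all 10 genes were well above background, and they belong to the 16481 genes that passed the same filter.

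The samples came from male C57BL/6J offspring aged 56 days, whose olfactory bulbs were taken 1 day after the last exposure. C-C mice were reared in standard cages and kept in clean air, and C-DE mice were reared in the same kind of cage and inhaled diesel exhaust. EE-C and EE-DE mice were reared with environmental enrichment (a larger cage with a running wheel and toys that were moved and replaced), the former in clean air and the latter in diesel exhaust. Exhaust (90 µg/m3) was given 8 h a day on 28 days, from postnatal day 28 to 55, and housing began before birth, with the pregnant dams. The methods describe 1 RNA pool per group, made from 7 mice in either standard-cage group, 8 in EE-C and 9 in EE-DE. Within a pool each mouse came from a different cage, but the methods count fewer rearing cages than mice, so that pools shared cages. According to the methods the pooled RNA was divided in 2 before labelling, for 2 one-colour arrays. A group is therefore 1 sample: the single comparisons have no replicate check, no test of exposure or housing was made, variation between mice was not measured, and no p-value is given.

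Immediate early genes are transcribed within minutes of a stimulus, without new protein synthesis, when calcium and growth factor signals act on factors already bound to their promoters, such as CREB and SRF. Many encode transcription factors that pass the signal on to later genes. In the olfactory bulb their mRNA marks cells driven by odours, above all granule, periglomerular and mitral or tufted cells. In whole-bulb RNA, more or fewer responding cells and more or less mRNA per cell cannot be told apart.

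A short promoter motif that the choice of genes did not use was common among the members. RefSeq promoters (GRCm38.p6) were at hand for 8 of the 10 genes, not for Egr1 and Arc, and their 250 bases before the transcription start were searched on both strands. The core of the cAMP response element, which CREB binds, was spelled TGACG or its reverse complement CGTCA. All 8 genes held it in at least 1 promoter. Of their 12 promoters, 10 held it (Egr2 has 5), against 17.8% of 32851 promoters of the same length, a share not counted by gene. The Egr2 promoters that held it overlap and share the same sites, so the 12 are not all separate stretches. The full palindrome TGACGTCA, which contains the core on each strand, was found only in Btg2 among them, and in 1.55% of all promoters. The CArG box that SRF binds was found only in Egr2, in 4 of its 5 promoters (of which the overlapping ones share a site), and in 1.47% of all. An Egr site (GCGGGGGCG or its reverse complement) was found in Fosb and Nr4a1, and in 2.57% of all. These matches describe the letters of these windows and are not shown to be bound. The match nearest to the start is shown for each gene (for Btg2, the full palindrome), in lower case with the motif in capitals, since it is the sequence feature these genes have in common. Its distance to the start is counted from the first base of the motif.
Fos (chr12:85473812-85473840, plus strand, 66 bases before the start): agttccgcccagTGACGtaggaagtccat
Fosb (chr7:19310089-19310117, minus strand, 60 bases before the start): tggagttgcgggTGACGcaagcgcggggg
Junb (chr8:84978838-84978866, minus strand, 106 bases before the start): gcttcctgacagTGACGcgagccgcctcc
Egr2 (chr10:67537802-67537830, plus strand, 55 bases before the start): tatgggcagcgaCGTCAcgggtattgaag
Npas4 (chr19:4990124-4990152, minus strand, 169 bases before the start): gacgtcacgggaTGACGtcggaagtctgg
Nr4a1 (chr15:101266794-101266822, plus strand, 40 bases before the start): cccctctccatgCGTCAcggagcgcttaa
Atf3 (chr1:191183334-191183352, minus strand, 7 bases before the start): ttaatagcattaCGTCAgc
Btg2 (chr1:134079303-134079332, minus strand, 166 bases before the start): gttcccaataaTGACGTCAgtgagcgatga

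On the arrays the members moved together, and they moved between the 2 arrays of the same pool as well as between pools. Levels are log2 signals relative to the 75th percentile of each array, and levels of different probes are not compared. Values are listed by pool, the standard-cage pools before the enriched ones and clean air before exhaust in each, as for Fos, with the first array before the second.

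**Figure D1:**
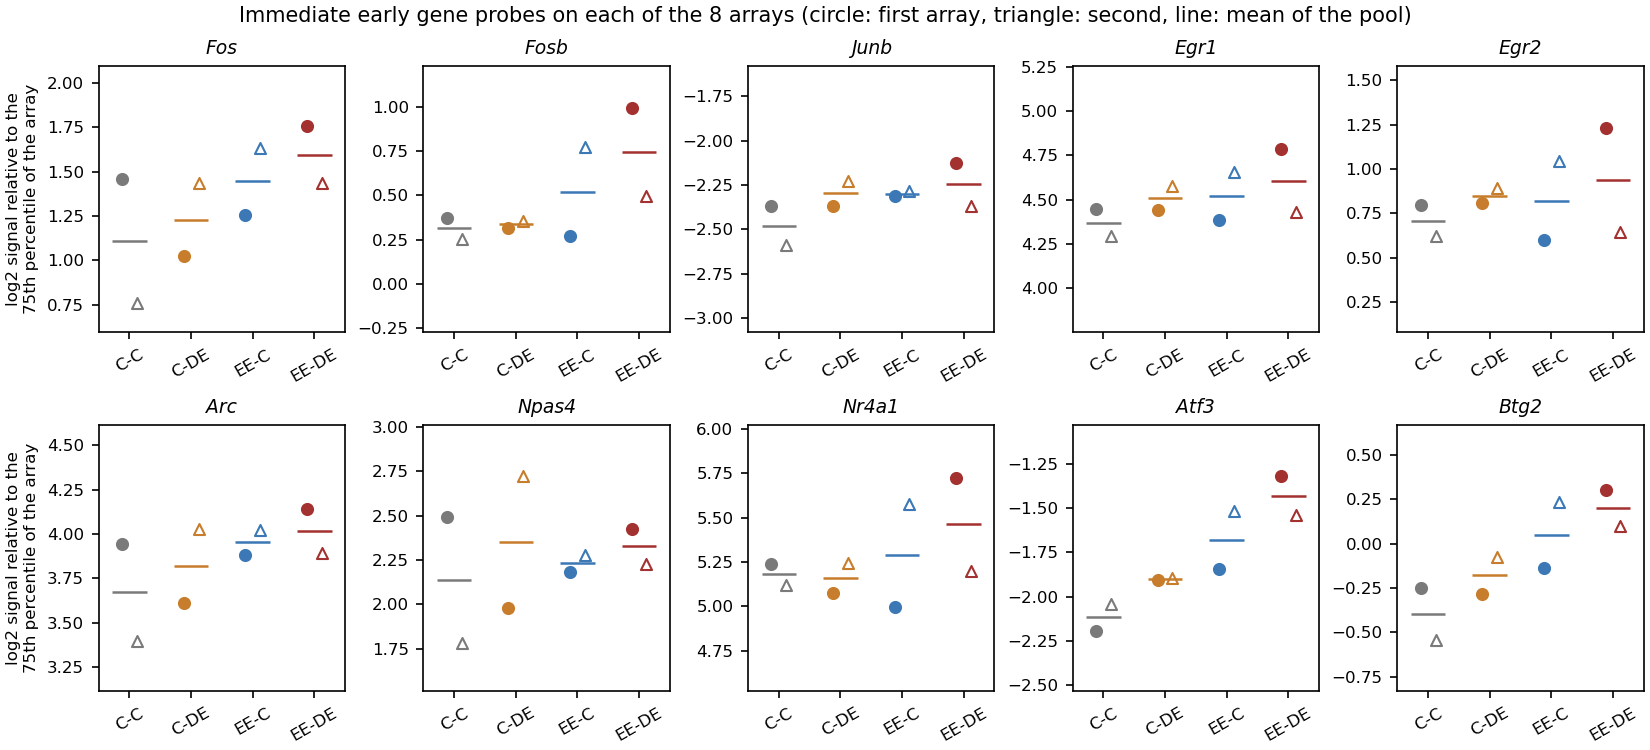
Log2 signal of each immediate early gene relative to the 75th percentile of the array (y axis, spanning the same 1.5 log2 units in every panel) in the 4 groups (x axis), with a circle for the first array, an open triangle for the second and a line for the mean of the pool. In most panels the circle lies above the triangle in C-C and EE-DE and below it in C-DE and EE-C, and the lines rise from C-C to EE-DE most clearly for Atf3 and Btg2.

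Fos, Fosb and Junb encode subunits of the AP-1 transcription factor. Fos (NM_010234, probe at chr12:86817900-86817959 of mm9, plus strand) stood at 1.46 and 0.76 in C-C, 1.02 and 1.44 in C-DE, 1.26 and 1.64 in EE-C, and 1.76 and 1.44 in EE-DE. The second C-C array was the lowest and the first EE-DE array the highest, and the groups overlapped in all 5 comparisons made. The 0.70 between the C-C arrays exceeded the 0.49 between the pool means of EE-DE and C-C. The 9 Fos spots of an array had an SD of 0.04 to 0.08, which covers the spread within an array and not labelling or hybridisation. The remaining spot was left out because it had an outlier flag, with 0.04 on the first EE-C array where the other spots lay between 1.09 and 1.36.

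Fosb (NM_008036, chr7:19888168-19888227, minus strand) was at 0.37 and 0.25, 0.32 and 0.35, 0.27 and 0.77, and 0.99 and 0.49. Both EE-DE arrays lay above all 4 arrays from standard cages, while the EE-C arrays lay on either side of the C-DE values. The log2 fold change was 0.43 in EE-DE/C-C (0.12 to 0.74 when each array of one pool was set against each of the other, 4 pairings) and 0.02 in C-DE/C-C (-0.06 to 0.10). Junb (NM_008416, chr8:87501881-87501940, minus strand) ran from -2.59 on the second C-C array to -2.13 on the first EE-DE array. Its other arrays were at -2.37 in C-C, -2.37 and -2.23 in C-DE, -2.31 and -2.29 in EE-C, and -2.37 in EE-DE. In EE-DE/C-C it differed least of the AP-1 subunits, by 0.23 (0.00 to 0.47), and its lowest EE-DE array was level with its highest C-C array. The Junb probe was dim, with a processed signal of 117 to 164 intensity units.

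Egr1 and Egr2 encode zinc-finger transcription factors, and Egr1 in particular is a common marker of neuronal activity. Egr1 (NM_007913) stood at 4.45 and 4.29, 4.44 and 4.58, 4.39 and 4.66, and 4.78 and 4.43. All groups overlapped, and the largest pool difference, 0.24 in EE-DE/C-C (-0.02 to 0.49), was smaller than the 0.36 between the EE-DE arrays. Egr2 (NM_010118, chr10:67004798-67004857, plus strand) was at 0.80 and 0.62, 0.81 and 0.89, 0.60 and 1.04, and 1.23 and 0.64. Its EE-DE arrays were 0.59 apart, and its pool means differed by at most 0.23. The C-DE arrays were both above the C-C arrays, by 0.14 on average (0.01 to 0.27).

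Npas4 encodes a transcription factor that responds to calcium entry in neurons and regulates inhibitory synapses. Npas4 (NM_153553, chr19:4984356-4984415, minus strand) was at 2.49 and 1.78, 1.98 and 2.72, 2.18 and 2.28, and 2.43 and 2.23. It had the widest gaps between arrays of a pool, 0.71 in C-C and 0.75 in C-DE, against a range of 0.21 for its pool means. The enriched pools lay between those extremes. In C-DE/C-C the pairings ran from -0.51 to 0.94 around a mean change of 0.21.

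Nr4a1 encodes an orphan nuclear receptor that is induced by activity and by growth factors. Nr4a1 (NM_010444, chr15:101105071-101105130, plus strand) was at 5.24 and 5.12, 5.07 and 5.24, 5.00 and 5.58, and 5.73 and 5.20. The standard-cage arrays spanned a narrow band. Of the enriched arrays, the first EE-C array lay below it, the second EE-DE array within it and the other 2 above it. It was the only member with a lower pool mean in C-DE than in C-C, by a log2 fold change of -0.02 (-0.16 to 0.12).

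Arc encodes a cytoskeletal protein of activated synapses that takes part in the removal of AMPA receptors. Arc (NM_018790, chr15:74499592-74499651, minus strand) was at 3.94 and 3.40, 3.61 and 4.03, 3.88 and 4.03, and 4.14 and 3.89. Only the second C-C array and the first C-DE array fell below the enriched arrays, so that no 2 groups were separate. Its change was 0.34 in EE-DE/C-C (-0.05 to 0.74) and 0.06 for exposure with enrichment (-0.13 to 0.26).

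Atf3, a stress-induced bZIP factor that represses many targets, showed the widest difference between pools. Atf3 (NM_007498, chr1:192994547-192994606, minus strand) was at -2.19 and -2.04, -1.90 and -1.90, -1.84 and -1.52, and -1.32 and -1.54. All 4 arrays of enriched pools lay above all 4 arrays of standard-cage pools, which held for no other member and for 4.4% of all genes. The log2 fold change was 0.69 in EE-DE/C-C (0.50 to 0.87, or 1.61-fold). For housing it was 0.44 in clean air (EE-C/C-C, 0.20 to 0.68) and 0.47 in exhaust (EE-DE/C-DE, 0.36 to 0.58). For exposure it was 0.22 in standard cages (C-DE/C-C, 0.13 to 0.30) and 0.25 with enrichment (EE-DE/EE-C, -0.02 to 0.52). The probe was dim, with a processed signal of 143 to 287 intensity units on the 8 arrays.

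Btg2 encodes an antiproliferative protein that is induced by p53 and by growth signals and is known as a marker of precursors that divide to give neurons. Btg2 (NM_007570, chr1:135972094-135972153, minus strand) was at -0.25 and -0.54, -0.28 and -0.07, -0.14 and 0.23, and 0.30 and 0.10. Both EE-DE arrays lay above all standard-cage arrays, and the EE-C arrays were above the C-C arrays but not above both C-DE arrays. The change was 0.60 in EE-DE/C-C (0.35 to 0.85, or 1.52-fold), 0.44 in EE-C/C-C (0.11 to 0.77) and 0.38 in EE-DE/C-DE (0.17 to 0.59).

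Atf3 and Btg2 were the only members at least 1.5-fold apart in any of the 5 comparisons, and both were higher in EE-DE than in C-C. With normexp background correction neither was past it there, with Atf3 at 0.50 and Btg2 at 0.46. That is 2 of 10 members, against 0.516% of all genes that were higher by this rule in EE-DE/C-C. The study chose both on these arrays as changed genes, so the count is not independent evidence of their direction. Neither was past 1.5-fold in all 4 pairings, a rule that 0.133% of all genes met. In the other 4 comparisons 0 members passed, against 0.649% of all genes in either direction for exposure in standard cages and 0.953% with enrichment. The share of all genes was 0.831% for housing in clean air and 0.74% in exhaust, and 0.928% in EE-DE/C-C when both directions were counted.

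Below that threshold the members leaned the same way. In EE-DE/C-C all 10 pool means were higher, with a median log2 fold change of 0.31 and a range of 0.19 (Npas4) to 0.69 (Atf3), while all genes had a median of -0.005 and 48.1% of them were higher. Both EE-DE arrays lay above both C-C arrays for 4 members (Fosb, Junb, Atf3 and Btg2), or 4 of 10 against 22.7% of all genes. Junb met this rule by a margin that rounds to 0.00. Exposure within standard cages gave 9 of 10 higher with a median of 0.14, against 46% of all genes. There, both C-DE arrays lay above both C-C arrays for 2 members (Egr2 and Atf3), against 18.2% of all genes. Exposure within enriched housing gave 10 of 10 higher with a median of 0.13, against 46% of all genes, but for no member were both EE-DE arrays above both EE-C arrays, against 14.4% of all genes.

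The medians for housing lay above those for exposure, which was not tested. In EE-C/C-C all 10 were higher, with a median of 0.19, against 53.5% of all genes. Both EE-C arrays lay above both C-C arrays for 3 of them (Junb, Atf3 and Btg2), against 21% of all genes. In EE-DE/C-DE 9 were higher, with a median of 0.25, against 51% of all genes, and Npas4 stood at -0.02. There, both EE-DE arrays lay above both C-DE arrays for 3 members (Fosb, Atf3 and Btg2), against 22% of all genes. All arrays were on 1 slide, where standard-cage pools filled one column and enriched pools another, so that housing and slide column cannot be told apart. In each column clean-air arrays lay in rows 1 and 2 and exhaust arrays in rows 3 and 4, so that exposure and slide row cannot be told apart either. The comparisons share pools, and the same 2 arrays of C-C or EE-DE stand behind several of them.

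**Figure D2:**
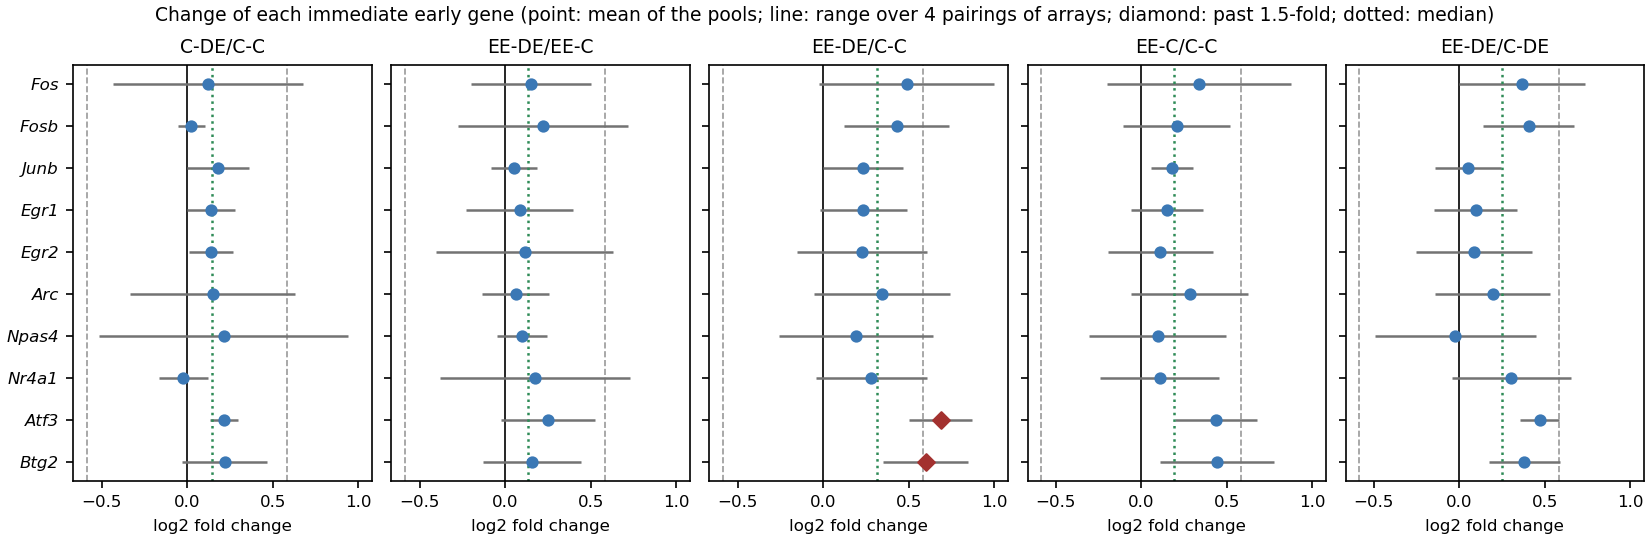
Log2 fold change (x axis) of each immediate early gene (y axis) in the 5 comparisons of pools. Points are differences of pool means, lines span the 4 pairings of arrays, dashed lines mark 1.5-fold, dotted lines mark the median of the members (0.14, 0.13, 0.31, 0.19 and 0.25), and the 2 diamonds are Atf3 and Btg2 in EE-DE/C-C.

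The medians were no more stable than the arrays behind them. Over the 4 pairings, the median of the members ran from -0.02 to 0.68 in EE-DE/C-C. For exposure it ran from -0.04 to 0.32 in standard cages and from -0.17 to 0.47 with enrichment, and for housing from -0.08 to 0.51 in clean air and from -0.09 to 0.56 in exhaust. Every one of these ranges included 0. The pool mean was lowest in C-C and highest in EE-DE for 8 members (all but Npas4 and Nr4a1), against 9.76% of all genes. This order of pools was not set beforehand. Without the first EE-DE array, the 2 called members in EE-DE/C-C became 0, and without the second EE-DE array they became 4 (Fos and Fosb were added). Without the second C-C array only Atf3 was called, and without the first C-C array Fos and Arc joined both. In the other comparisons, leaving out the first C-DE array took Npas4 past 1.5-fold against C-C, and leaving out the second EE-DE array did so for Fosb in EE-DE/C-DE. In EE-C/C-C, Fos and Btg2 passed without the first C-C array, and Atf3 and Btg2 without the first EE-C array.

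The exposure change was compared between housings gene by gene. The change in enriched housing minus the change in standard cages had a median of -0.04, from -0.13 for Junb to 0.20 for Fosb and Nr4a1. Over the 16 combinations of array pairings the median ran from -0.55 to 0.60, and no test of this difference was possible with 1 pool per group.

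The 2 arrays of a pool, which carry the same RNA according to the methods, differed in the members by more than in other genes and in the same direction. The first C-C array was higher for 9 of 10 members, with a median difference of 0.20 and the largest for Npas4 at 0.71, and Atf3 alone ran the other way. The first C-DE array was lower for all 10, with a median of -0.15. The first EE-C array was lower for all 10, with a median of -0.35 and the largest for Nr4a1 at -0.58. The first EE-DE array was higher for all 10, with a median of 0.29 and the largest for Egr2 at 0.59. Whether these gaps are technical was not tested.

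Across all genes the median absolute difference between the arrays of a pool was 0.06 to 0.07 in both standard-cage pools, 0.09 in EE-C and 0.06 in EE-DE. All 4 signs together (first array higher in C-C and EE-DE, lower in C-DE and EE-C) were seen in 9 of 10 members, all but Atf3, and in 4.48% of all genes. This pattern of signs was read from the members themselves. For 8 members (all but Atf3 and Btg2) the widest gap between arrays of a pool exceeded the range of the 4 pool means, as it did for 62.5% of all genes. The first EE-DE array was the highest of the 8 for 9 members, against 11.4% of all genes, and the second C-C array the lowest for 7, against 11.6%.

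**Figure D3:**
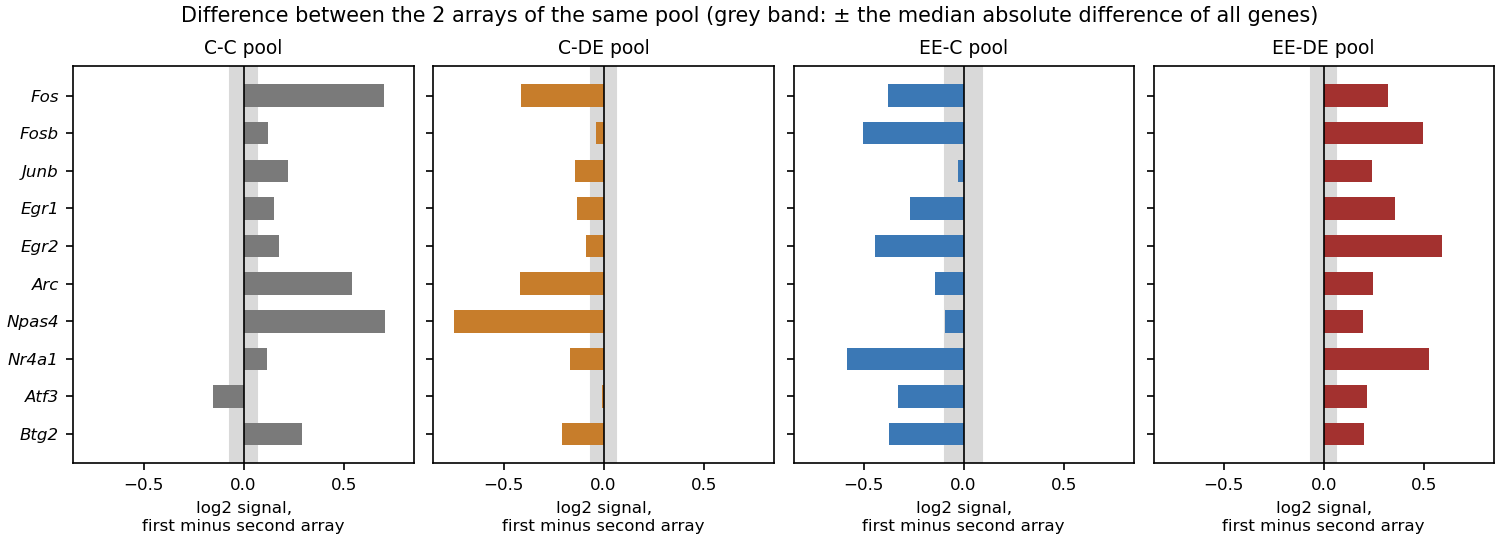
Log2 signal of the first minus the second array of the same RNA pool (x axis) for each immediate early gene (y axis), with 1 panel per pool and a grey band at plus and minus the median absolute difference of all genes. Nearly all bars of a panel point the same way and most reach beyond the band, with Npas4 longest in C-C and C-DE, Nr4a1 in EE-C and Egr2 in EE-DE.

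The common movement can be given as 1 value per array, the mean of the 10 genes after each was centred over the 8 arrays. It was -0.04 and -0.33 for the C-C arrays, -0.17 and 0.07 for C-DE, -0.11 and 0.21 for EE-C, and 0.36 and 0.02 for EE-DE. The highest value was that of the first EE-DE array, where 56.7% of noncontrol spots were well above background, against 68.0% to 70.6% on the other arrays, and the part of this lower share in the result was not tested. All 45 pairs of members had a positive Pearson's r over the 8 arrays, which share 4 pools, with a median of 0.77 and a range of 0.15 (Npas4 with Atf3) to 0.97 (Fos with Arc). Among 1936 other genes whose pool means spanned at least 0.3, those most like this mean were Dusp1, a phosphatase that ends MAP kinase signals (r = 0.96), and Egr4, a relative of Egr1 (r = 0.96). Nxf2, Lgals3bp and Ifi27l2a followed (r = 0.93 each), and 6820445E23Rik (r = -0.89), Igh-VJ558 (r = -0.86) and Pcdha11 (r = -0.85) were the least like it.

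For no member did all 4 exposed arrays lie above all 4 clean-air arrays, against 1.69% of all genes. Btg2 was most like Nxf2 and Dusp1 (r = 0.96 each), Gadd45b, a stress and activity-induced gene (r = 0.95), Hist2h2ab (r = 0.94) and Olfr52 (r = 0.94). Atf3 was most like 3110052M02Rik (r = 0.97), Aym1, Rhox1, 2310047N11Rik and Wee1 (r = 0.94, 0.94, 0.93 and 0.93). These values are descriptions over 8 arrays, picked from the same 1936 genes.

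Other genes of the response were read from 4 lists, and their medians lay closer to 0. Of 22 further transcription factors of the rapid response, 19 passed the filter (not Fosl1, Egr3 and Nr4a3), and in EE-DE/C-C their median was 0.05, with 14 of 19 higher, against 48.1% of all genes. None was past 1.5-fold there, against 0.928% of all genes. The largest changes there were Mafk, a small Maf factor, at -0.45 (-0.56 to -0.34) and Egr4 at 0.41 (0.00 to 0.81). Of 25 feedback and signalling genes of the rapid response, 24 passed (not Zfp36), with a median of 0.13 in EE-DE/C-C, and 18 of 24 were higher, against the same 48.1%. In that comparison 2 of the 24 (Dusp5 and Amigo3) were past 1.5-fold, against 0.928%. In EE-DE/C-C the later effector genes, such as Homer1, had a median of -0.006 (11 of 12 passed, not Nptx1), with 5 of 11 higher. The regulators upstream had one of -0.05 there (21 of 21 passed), with 5 of 21 higher. In neither list was a gene past 1.5-fold in any comparison. The study does list the regulators Elk1 and Camk4 among its changed genes on these arrays. Here each gene was read from its brightest probe, where Elk1 was at -0.27 in EE-DE/C-C (-0.38 to -0.16). The reason for the difference was not tested.

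Over the 4 lists, 75 genes passed the filter, and 3 of them were past 1.5-fold anywhere, each through 1 array. That is 3 of 75, against 2.23% of all genes past 1.5-fold in at least 1 of the 5 comparisons. Dusp5, an ERK phosphatase that the study also lists as changed on these arrays, was at -1.45 on the first EE-DE array and between -2.91 and -2.37 on the others. That gave 0.74 in EE-DE/C-C (0.06 to 1.43). Amigo3, an adhesion protein, was at -1.85 on the first EE-DE array and between -3.28 and -2.85 elsewhere. For the EE-DE pool that gave 0.64 against C-C (0.05 to 1.23) and 0.66 against EE-C (-0.12 to 1.43). Klf2, a zinc-finger factor, was at -0.46 on the first EE-C array and between 0.56 and 0.78 elsewhere, which gave 0.64 in EE-DE/EE-C (0.03 to 1.24).

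The tissue was checked with cell type markers. All 6 markers of bulb interneurons and all 6 of mitral and tufted cells passed the filter, and their summed signals, in units of the 75th percentile, ranged over the 8 arrays from 291 to 309 and from 63.5 to 68.5. Markers of olfactory sensory neurons, whose axons end in the bulb, summed to 103 to 127 (7 of 8 passed, Rtp1 did not). Markers of supporting cells and glands in the nose's olfactory mucosa, which are not bulb tissue, summed to 3.67 to 16.3 (7 of 8 passed, Cyp1a2 did not), and neutrophil markers (5 of 5) to 2.67 to 9.28.

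The mucosal markers also differed between arrays of a pool, by a median of 0.80 (first minus second array) for the C-C pool and -0.34 for C-DE, and of 1.36 for EE-C and -0.75 for EE-DE. Their sign was that of the immediate early genes in C-C and C-DE and the opposite in EE-C and EE-DE. Between pools they were lower in C-DE than in C-C, with a median of -1.25, where the immediate early genes had 0.14. With enrichment the exposed pool was the higher one, with a median of 0.74 against 0.13 for the immediate early genes. For housing the mucosal median was -0.32 in clean air (0.19 for the immediate early genes) and 1.70 in exhaust (0.25), and it was 0.39 in EE-DE/C-C (0.31). Neutrophil markers had the sign of the immediate early genes between arrays in C-C (0.31) and EE-DE (0.75) and the opposite sign in C-DE (0.20) and EE-C (1.43). Between pools their median was -0.73 for exposure in standard cages and -0.32 with enrichment, 0.25 for housing in clean air and 0.68 in exhaust, and -0.06 in EE-DE/C-C. Markers of olfactory sensory neurons had the sign of the immediate early genes between arrays in C-C (0.26) and C-DE (-0.20) and the opposite sign in EE-C (0.21) and EE-DE (-0.06). Between pools their median was -0.20 for exposure in standard cages and 0.09 with enrichment, -0.06 for housing in clean air and 0.35 in exhaust, and 0.11 in EE-DE/C-C. The pool medians of red blood cell markers ran from -0.20 to 0.21 over the 5 comparisons, and those of microglia, endothelium, astrocytes and oligodendrocytes from -0.11 to 0.09. The part of these markers in the results was not tested.

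**Figure D4:**
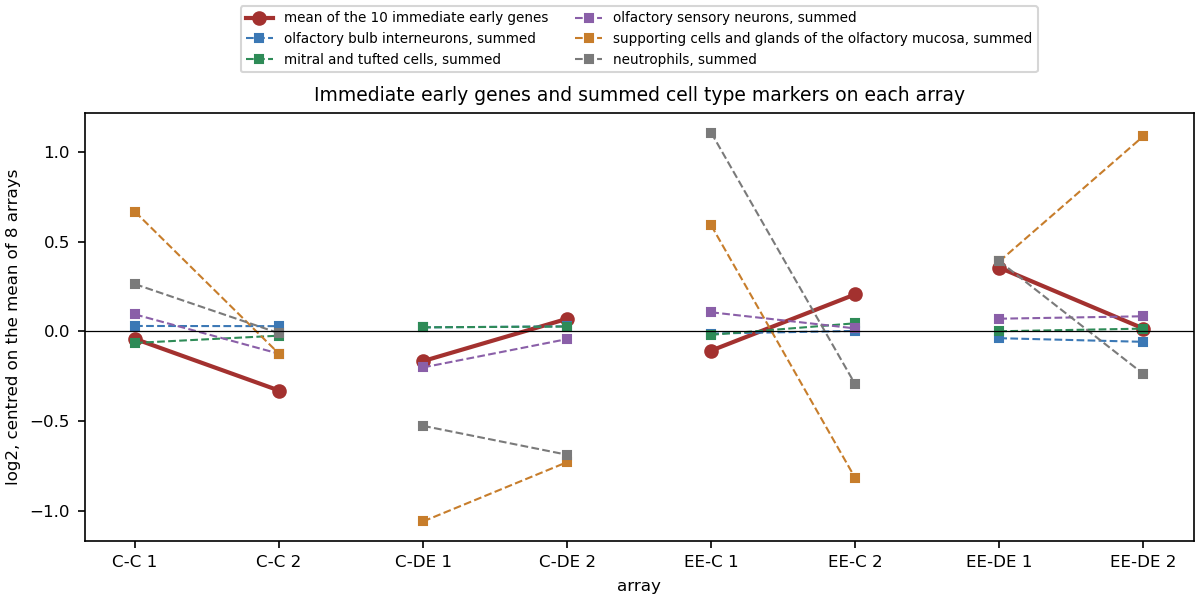
Mean of the 10 immediate early genes and the log2 of the summed signal of 5 lists of cell type markers (y axis, log2, each centred on its mean over the 8 arrays) on each array (x axis), with the 2 arrays of a pool joined by a line. Bulb interneuron and mitral or tufted markers stay near 0, mucosal and neutrophil markers swing most, and the mean of the immediate early genes runs from -0.33 on the second C-C array to 0.36 on the first EE-DE array.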

How the data were processed

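Olfactory bulb RNA of 4 groups was measured on 8 one-colour Agilent arrays, 2 per pool, and groups were taken from the sample titles. The authors deposited scanner intensities from Agilent Feature Extraction 10.7.3.1 (per the submitters' processing notes), with background subtracted and spatial trends removed within each array, per the file headers. The deposited log2 values of the series table were made by the authors. After the same centring as that table, own values lay within 0.02 on all 8 arrays for 99.4% of 21706 probes.

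For each array, the log2 processed signal minus the array's 75th percentile over noncontrol spots (644 to 716 intensity units) was computed. Spots had to carry a GenBank or RefSeq accession, be well above background on all 8 arrays and have no outlier flag. Spots of a probe were averaged, and a gene was read from its brightest probe. A fold change is the difference of the means of 2 log2 values, with its range over the 4 pairings of arrays, and was called at 1.5-fold (0.58). Probe positions are those of the array files (mm9), their place within exons or UTRs was not analysed here, promoters are RefSeq's (GRCm38.p6), and no coordinate was carried between builds.

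All members are named. Of each list of related genes, those past 1.5-fold in all 4 pairings and up to 3 more with the largest change are named, and likeness is Pearson's r over the 8 arrays (the 5 highest, and for the mean also the 3 lowest). The members and lists were chosen with earlier results of these data known. Arrays are the only replicates and their number limits the precision: no test was made. The code that computes and calls fold changes was tested on simulated data. Python 3.11.15, numpy 2.4.6, pandas 2.3.3 and scipy 1.17.1 were used, with R 4.3.3 and limma 3.58.1 for normexp and quantile normalization. Alternatives changed the background correction (normexp, offset 50), the scaling, the filters, the averaging, the probe, the threshold, the position on the slide (100 neighbouring spots) or the arrays used. The quantitative RT-PCR and lung data of the study were not used here.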

Additional observations from a re-analysis of the deposited data

How the results depend on the processing

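No paired analysis was possible because the array numbers 1 and 2 name the 2 arrays of 1 pool per group, and the results come from no test. The 5 medians of the members kept their sign under the 7 other settings that altered any value of the members. Another 4 settings (a looser signal flag, no filter on dim spots, all accession types and the mean of all passing probes) left every member's value as it was and show nothing about stability, and leaving in outlier spots altered Fos alone. For exposure they ran from 0.13 to 0.16 in standard cages and 0.10 to 0.17 with enrichment, for housing from 0.17 to 0.21 in clean air and 0.23 to 0.26 in exhaust, and in EE-DE/C-C from 0.31 to 0.36. The 2 members past 1.5-fold in EE-DE/C-C became 0 with normexp background correction, where Atf3 was at 0.50 and Btg2 at 0.46, and 0 at 2-fold and 0 when all 4 pairings had to pass. The cause was not tested. They stayed the same 2 genes under the 5 other settings that altered their values. In the other comparisons the count stayed 0 under the 7 settings.

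Leaving out 1 array moved the medians most. The change of Atf3 in EE-DE/C-C (0.69) ran from 0.58 to 0.80 in this way and moved further with normexp, to 0.50. For exposure the medians ran from 0.01 to 0.26 in standard cages and -0.05 to 0.34 with enrichment, where the sign changed without the first EE-DE array (-0.05) and without the first EE-C array (-0.03). For housing they ran from 0.06 to 0.38 in clean air and 0.06 to 0.43 in exhaust, and in EE-DE/C-C from 0.15 to 0.53. The counts past 1.5-fold ran from 0 to 1 for exposure in standard cages, 0 to 0 for exposure with enrichment, 0 to 2 for housing in clean air, 0 to 1 for housing in exhaust and 0 to 4 in EE-DE/C-C. The median difference of the exposure changes ran from -0.19 to 0.16. The gaps between arrays of a pool, tried under settings chosen after seeing the data of which 6 altered them, ran from 0.17 to 0.21 for C-C and -0.17 to -0.13 for C-DE, and from -0.36 to -0.30 for EE-C and 0.27 to 0.30 for EE-DE. Of 305 values of single genes that the 7 settings altered, 304 moved by less than the spread over pairings. The exception was Atf3 in EE-DE/C-C with normexp background correction, the largest change of a member. All members were well above background on all 8 arrays, so that background set no bound on a value, and how far it limits the precision of dim probes was not tested.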
